A study of Mus musculus with 6 samples.

Results

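The barcodes described here held the transcripts of 2 islet hormones at once, insulin and somatostatin. They were chosen by measured values: of all droplet barcodes in 6 libraries of mouse islet cells, those with over 1000 detected genes, 5000 or more unique molecular identifiers (UMIs, 1 for each captured RNA molecule), at most 10% of UMIs on mitochondrially encoded genes, *Ins1* and *Ins2* together at 10% or more of UMIs, and *Sst* at 1% or more. The rule found 526 of 43445 barcodes, and 14793 barcodes passed its limits on genes, UMIs, and mitochondrial share. Hormone shares, UMIs, genes, and every gene set beside them in the same barcodes are therefore given as a description without a test, and tests were kept for genotype, which the rule did not use directly. Its insulin limit counts *Ins1*, which differed between the genotypes, so the choice of barcodes is not fully independent of genotype. *Ins1* and *Ins2* are near-identical copies, so the split of UMIs between them is uncertain. Their sum was used for the rule and for all insulin shares, and values given for 1 copy alone depend on that split.

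Insulin is made by the β cells and somatostatin by the δ cells of the pancreatic islet, and each of these cell types is usually defined by 1 leading hormone. β cells carry the transcription factors *Mafa* and *Nkx6-1*, the glucose transporter *Slc2a2*, and the co-secreted peptide *Iapp*. δ cells carry the homeobox factor *Hhex*, the retinol carrier *Rbp4*, and the ghrelin receptor *Ghsr*, and their somatostatin restrains the neighboring β cells.

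The series compared islets of 3 β14-3-3ζ–KO mice with those of 3 WT mice, all 12 to 14 weeks old and labelled C57/BL6, with 1 library for each mouse. KO mice had exon 4 of *Ywhaz*, the gene of 14-3-3ζ, flanked by loxP sites and Cre knocked into the *Ins1* locus (Ins1-CreThor), so that recombination is driven in cells that use the insulin promoter. Control (WT) mice came from the same litters and had the Cre allele too, and the labels give neither the sex of the mice nor the number of Cre copies in each genotype. Islets were left to recover overnight and dispersed with trypsin, dead cells were removed, and RNA was captured at its 3′ end, which does not show whether exon 4 is present in a counted molecule.

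The libraries held 4400 to 10722 barcodes and 74083947 to 98294915 UMIs. KO library 2 stood apart: its barcodes rich in insulin alone had a median of 2609.5 genes, against 4876 to 5664 in the other 5 libraries, and the share of barcodes, the depth ratios, and the *Ywhaz* differences are given with and without it. Of all barcode sequences, 236 occurred in 2 or more libraries, among them those of 5 of the 526 insulin–somatostatin barcodes, and 2 of the 5 passed the rule in both libraries. No doublet caller was used to remove barcodes.

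For comparison, barcodes past the same limits were split by hormone alone. There were 8045 β barcodes (insulin at 10% or more, *Sst*, *Gcg*, and *Ppy* each under 1%), 839 δ barcodes (*Sst* at 1% or more, insulin under 10%), 666 barcodes with insulin and *Gcg* or *Ppy* but not *Sst*, and 1038 endothelial barcodes (6 endothelial markers together at 0.3% or more), which should hold neither hormone. *Gcg* and *Ppy* encode glucagon and pancreatic polypeptide. In endothelial barcodes the median *Sst* share was 0.0114% to 0.0201% of UMIs over the libraries, and the median insulin share was 0.587% to 4.91%. In β barcodes the median *Sst* share was 0.00772% to 0.0311%.

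Insulin–somatostatin barcodes numbered 44, 96, and 66 in the WT and 93, 140, and 87 in the KO libraries, in the order of replicates 1 to 3 that is used for all values that follow. Their insulin share ran from 10.1% to 65.7% of UMIs with a median of 24.8%, and their *Sst* share from 1.01% to 16.3% with a median of 2.41%. Both hormones were lower than in the single-hormone barcodes, in which the library medians were 27.2% to 39.8% insulin for β and 6.87% to 9.70% *Sst* for δ. The lower limits did not sit in an empty gap. Among insulin-rich barcodes, 7254 had under 0.05% *Sst*, 118 had 0.2% to 0.5%, 137 had 0.5% to 1%, and 205 had 1% to 2%. The median depth of the 137 just under the limit was 41593 UMIs and of the 205 just over it 45927 UMIs. Nearest to the limit, the 5 barcodes inside it had 1.01% *Sst* and 44494 to 275495 UMIs, and the 5 outside it had 0.984% to 0.999% *Sst* and 44292 to 76376 UMIs.

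**Figure D1:**
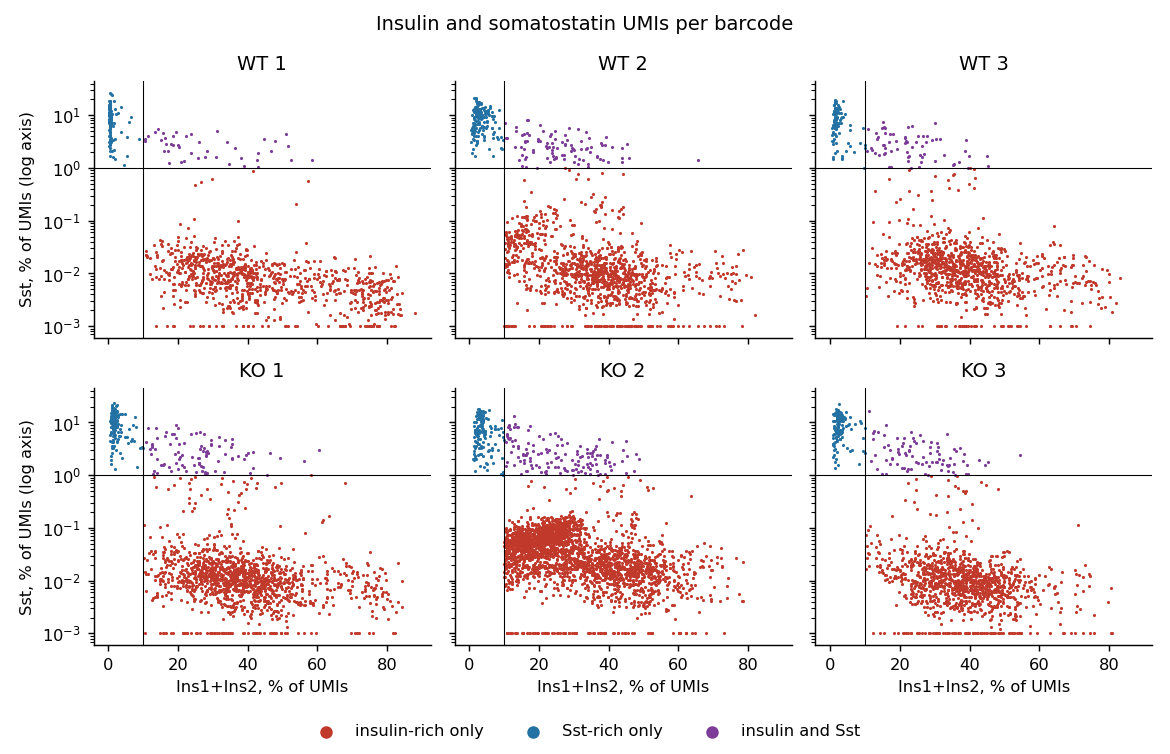
Insulin (*Ins1*+*Ins2*, percent of UMIs, linear axis) against *Sst* (percent of UMIs, log axis, shares under 0.001 drawn at 0.001) for each β, δ, and insulin–somatostatin barcode of the 6 libraries, with the limits of 10% and 1% as lines. The 526 insulin–somatostatin barcodes fill the upper right of every panel, and KO library 2 has a second dense band of insulin-rich barcodes around *Sst* shares of 0.05% to 0.1%, of which WT library 2 shows a sparser form.

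Many of these barcodes held a further islet hormone. *Ppy* reached 1% of UMIs in 187 of the 526 and *Gcg* in 93, both did in 37, and neither did in 283. Among δ barcodes, *Ppy* reached 1% in 593 of 839 and *Gcg* in 162. The share with *Ppy* at 1% or more was 50.0%, 34.4%, and 40.9% in WT and 35.5%, 30.7%, and 33.3% in KO insulin–somatostatin barcodes, against 58.9% to 79.8% in the δ barcodes of the same libraries. By this limit *Ppy* was thus common in both classes, and fewer barcodes reached it where insulin was high. The limit is a share of all UMIs, insulin included. In summed barcodes, mean *Ppy* and *Sst* were 14535 and 26516 UMIs per 1000000 in insulin–somatostatin barcodes, and 39969 and 80198 in δ barcodes. The ratio of *Ppy* to *Sst* was lower than in δ barcodes in WT library 1 and KO library 2, and higher in the other libraries. A lower level of *Ppy* relative to *Sst* was thus not shown.

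The number of insulin–somatostatin barcodes did not separate the genotypes. They made up 4.13%, 6.32%, and 5.32% of all insulin- or *Sst*-rich barcodes for WT and 5.55%, 4.46%, and 6.04% for KO. The ranges overlapped, with 5.26% ± 1.10 in WT and 5.35% ± 0.807 in KO (SD, n = 3 each; two-sided exact permutation test, p = 0.9, where 3 against 3 can give no p below 0.1). The KO minus WT difference was 0.09 percentage points, or 0.54 without KO library 2 (exact permutation test, p = 0.8). With 10000 or more UMIs required of each barcode, the share in KO library 2 was 7.82% and the difference 1.12 percentage points (exact permutation test, p = 0.4). Of *Sst*-rich barcodes alone, they were 33.3% ± 6.84 in WT and 42.0% ± 6.35 in KO (exact permutation test, p = 0.3). All these shares rest on the insulin limit. It counts *Ins1*, which in β barcodes was at 86083 to 109648 CPM in WT and 57398 to 64418 CPM in KO. What that difference does to the shares was not tested. The product of the numbers of β and δ barcodes, divided by the number of barcodes past the limits, gives a value to set beside the number of insulin–somatostatin barcodes in each library. Their number was 0.627 to 1.69 times that value over the 6 libraries, and for barcodes with insulin and *Gcg* or *Ppy*, against β barcodes and *Gcg*- or *Ppy*-rich barcodes without insulin, the same ratio was 0.521 to 1.69. The value holds no rate of 2 cells in 1 droplet, which was not measured. The ratio therefore only compares libraries and classes, and a ratio near 1 does not mean a match with random pairing.

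Insulin–somatostatin barcodes held more RNA molecules than either single-hormone class. Their median UMI number was 55006, 43872, and 54413.5 for WT and 44851, 28683.5, and 49855 for KO. β barcodes of the same libraries had medians of 42018.5, 25872, 32511, 30140, 9813, and 31482 UMIs, and δ barcodes of 22077, 18013, 19046, 16537.5, 14642, and 17089. In all 6 libraries the insulin–somatostatin median was the highest of the 3, by 1.78 ± 0.578 times against β and 2.56 ± 0.352 times against δ (SD, n = 6 libraries). KO library 2 had the highest ratio to β, 2.92, and without it the ratios were 1.55 ± 0.158 and 2.68 ± 0.214 (SD, n = 5 libraries). Added together, the β and δ medians came close to it: the ratio of the insulin–somatostatin median to their sum was 1.01 ± 0.104, between 0.858 in WT library 1 and 1.17 in KO library 2. Detected genes followed, with medians of 5224.5 to 7461 and ratios of 1.43 ± 0.282 to β and 1.43 ± 0.111 to δ, or 1.32 ± 0.0511 and 1.46 ± 0.0825 without KO library 2. With each barcode thinned to 5000 UMIs, the median was 1781 to 1926 genes, which lay above β (1585 to 1730) and below δ (2015 to 2157) in every library. Their mitochondrial share was 5.18% to 6.50% in the median, above β (3.02% to 4.91%) and δ (3.97% to 4.99%) in every library. Barcodes with insulin and *Gcg* or *Ppy* had median mitochondrial shares of 3.43% to 6.51%. The median depth of that class was 9375.5 to 43844 UMIs, above β barcodes except in WT library 1 and KO library 2. What part 2 cells in 1 droplet have in these values was not tested, and 2 cells and 1 cell with both programs cannot be told apart from counts alone.

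**Figure D2:**
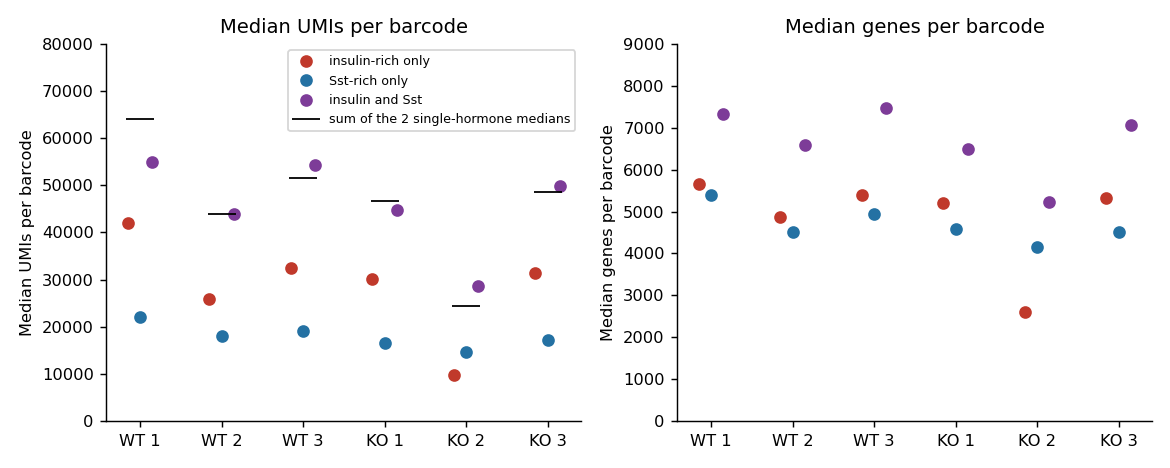
Median UMIs (left) and median detected genes (right) per barcode in each of the 6 libraries for β, δ, and insulin–somatostatin barcodes, with the sum of the β and δ medians as a black bar. The insulin–somatostatin median is the highest in every library, and it sits at 0.858 to 1.17 times the bar.

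The genes that mark δ cells were present well above their β level. *Rbp4*, whose product carries retinol in blood, stood at 1902, 1418, and 1511 CPM (UMIs of the gene per 1000000 UMIs) in the summed insulin–somatostatin barcodes for WT and at 1802, 1706, and 1528 CPM for KO. β barcodes had 15.5 to 42.6 CPM and δ barcodes 3424 to 4185 CPM. The 3 classes did not overlap, and the insulin–somatostatin mean of 1644 ± 189 CPM was 52.1 times the β mean and 0.430 times the δ mean. *Hhex*, the factor that δ cells need, stood at 75.2, 70.5, and 81.2 CPM in WT and 83.0, 70.1, and 72.7 CPM in KO, against 1.26 to 8.48 CPM in β and 145 to 256 CPM in δ barcodes. Here again no library of one class reached into the range of another. *Ghsr* was at 8.53 to 10.6 CPM, against at most 0.255 CPM in β and 19.5 to 29.6 CPM in δ barcodes, and it had no UMI in endothelial barcodes. *Rbp4* lies at chr19:38116629-38125281 and *Hhex* at chr19:37434810-37440731 of GRCm38.

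The genes that mark β cells were present as well. *Mafa*, a factor of mature β cells, stood at 192, 544, and 423 CPM in WT and 478, 568, and 388 CPM in KO insulin–somatostatin barcodes. β barcodes of the same libraries had 334, 680, 630, 513, 650, and 544 CPM, and δ barcodes 16.7 to 97.9 CPM. In each library the insulin–somatostatin value was the lower of the first 2 and above δ, and WT library 1 was low in all 3 classes. *Slc2a2*, the glucose transporter, had 66.7 to 174 CPM, against 114 to 197 CPM in β and 5.56 to 26.4 CPM in δ barcodes. *Nkx6-1* was at 139 ± 20.3 CPM, *G6pc2*, a glucose-6-phosphatase of islets, at 288 ± 34.9 CPM, and *Ucn3*, the peptide by which β cells stimulate δ cells, at 107 ± 24.1 CPM (SD, n = 6 libraries), which were 0.807, 0.707, and 0.725 times their β means. *Iapp* was high throughout, at 32484 ± 627 CPM against 34656 ± 1805 in β and 23142 ± 2208 in δ barcodes.

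Across the longer lists the levels lay between the single-hormone classes. Of 20 δ genes, 10 were at 20 CPM or more in β or δ barcodes and at least 2-fold higher in δ, and all 10 lay between the β and δ levels in all 6 libraries. Of 20 β genes, 14 met the mirrored limits and all 14 lay between. Over all genes meeting those limits other than *Ins1*, *Ins2*, and *Sst*, 777 of 879 δ-high genes (88.4%) and 96 of 136 β-high genes (70.6%) did so too, so most genes that set β and δ apart lay between. On a scale with the β level at 0 and the δ level at 1, the median gene of the δ list was at 0.334, 0.353, and 0.402 for WT and at 0.372, 0.448, and 0.372 for KO. The median gene of the β list was at 0.409, 0.293, and 0.343 in WT and 0.337, 0.228, and 0.352 in KO. These levels come from cells picked for both hormones, and *Sst* itself was at 0.332 ± 0.0373 on the same scale and *Ins2* at 0.344 ± 0.0447.

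A weighted mean of the β and δ levels, with weights in proportion to their median UMIs, was computed for each library as a reference. The δ weight was 34.4% to 41.0% in 5 libraries and 59.9% in KO library 2. Of 2485 genes at 50 CPM or more other than the hormones of the rule, 95.4% to 98.6% lay within 1.25-fold of that mean in the 5 libraries and 85.8% in KO library 2. Within the same distance of the β level lay 48.6% to 85.3% of the genes, and of the δ level 43.2% to 63.5%. *Rbp4* was at 1.09 ± 0.221 times the weighted mean, *Hhex* at 0.933 ± 0.164, *Mafa* at 1.22 ± 0.326, *Slc2a2* at 1.15 ± 0.285, and *Meg3* at 1.05 ± 0.0489 (SD, n = 6 libraries).

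**Figure D3:**
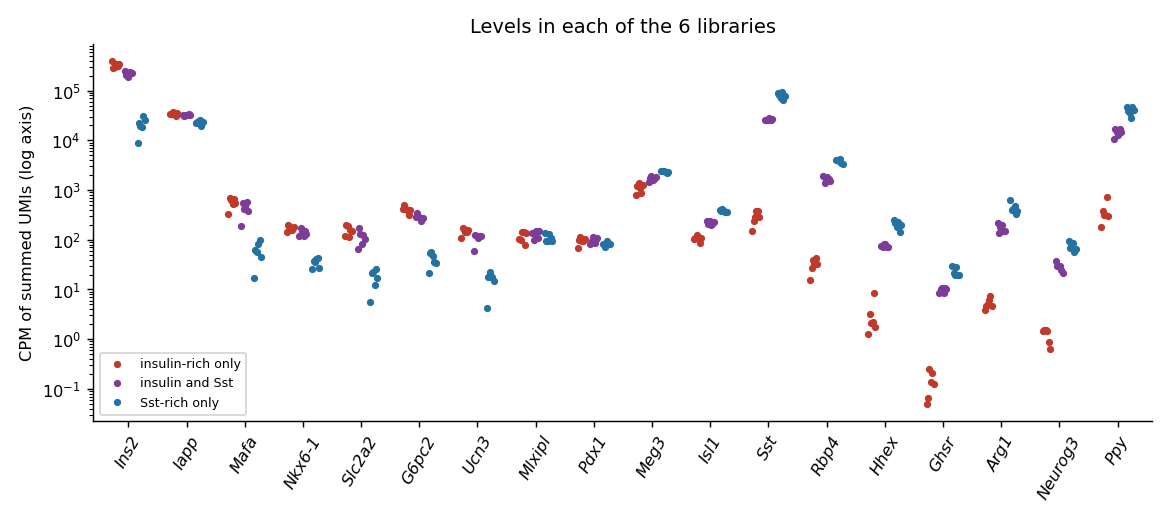
Levels of 18 genes (CPM of UMIs summed over the barcodes of a class, log axis) in β, insulin–somatostatin, and δ barcodes, with 1 point for each of the 6 libraries and values under 0.05 CPM drawn at 0.05. The insulin–somatostatin points of *Rbp4*, *Hhex*, and *Ghsr* lie between the other classes, and those of *Mlxipl* and *Pdx1* overlap them.

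*Meg3* and *Mlxipl*, proposed as marks of these barcodes, did not behave alike. *Meg3*, a maternally expressed long noncoding RNA, stood at 1448, 1753, and 1910 CPM in WT and 1606, 1647, and 1828 CPM in KO insulin–somatostatin barcodes, above β (794 to 1371 CPM) and below δ (2227 to 2428 CPM) without overlap. Barcodes with insulin and *Gcg* or *Ppy* had 1154 to 1717 CPM of *Meg3*. That range overlapped the insulin–somatostatin one, although the insulin–somatostatin value was the higher in each library. *Mlxipl*, the carbohydrate-responsive factor ChREBP, stood at 134, 97.9, and 137 CPM in WT and 152, 108, and 148 CPM in KO, within reach of both β (79.1 to 146 CPM) and δ (93.6 to 136 CPM). By its level *Mlxipl* therefore did not mark these barcodes.

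Of 10 transcription factors shared by islet cells, *Isl1* and *Pax6* lay between the β and δ levels in all 6 libraries, and the other 8 did so in 1 to 5 libraries each. *Isl1*, a LIM-homeobox factor of islet cells, was at 197 to 242 CPM, against 86.8 to 123 CPM in β and 356 to 409 CPM in δ barcodes. *Pdx1*, used by both cell types, was at 81.4 to 113 CPM with β at 69.3 to 114 CPM and δ at 70.4 to 94.6 CPM, and the 3 ranges overlapped. The immediate early genes, 10 transcripts induced by stimulation or tissue dispersion, summed to 1265 ± 167 CPM, between 432 ± 46.7 in β and 2984 ± 220 in δ barcodes. The 10 ER stress genes summed to 3148 ± 316 CPM, with 3109 ± 535 in β and 3492 ± 169 in δ.

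Few genes lay outside the range of the single-hormone classes. Of 2488 genes at 50 CPM or more, 1106 (44.5%) were between β and δ in all 6 libraries, 14 (0.563%) were above both in all 6, and 3 (0.121%) were below both. The 5 furthest above were *mt-Cytb*, *mt-Nd4*, and *mt-Co1*, which encode parts of the respiratory chain, *Ddb1*, a DNA damage–binding protein, and *Tle5*, a transcriptional corepressor. Their means were 1.10 to 1.17 times the higher of the β and δ means, at 6801, 5006, 8473, 132, and 457 CPM. Barcodes with insulin and *Gcg* or *Ppy* had means of 6517, 4699, 8296, 131, and 460 CPM, also above both, so these levels were not particular to insulin–somatostatin barcodes. The mitochondrial genes bear on the rule, which set a limit on their sum. Below both were *AY036118* (0.547 times the lower mean) and *Gm42418* (0.738 times), both annotated at ribosomal RNA sequence, and *Lars2*, a mitochondrial leucyl-tRNA synthetase (0.777 times). Their means were 263, 9218, and 326 CPM, and those of barcodes with insulin and *Gcg* or *Ppy* were 311, 11398, and 374 CPM, also below the β and δ means.

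Markers of other cell types had low sums beside those of the islet genes, although nearly all were detected (10 of 10 in each list, and 9 of 10 acinar and duct markers). Of 10 endothelial, 10 lymphocyte, and 10 stellate markers, the sums in insulin–somatostatin barcodes were 8.73 to 70.4, 3.88 to 115, and 1.24 to 15.7 CPM over the libraries. Endothelial barcodes had 15757 to 20792 CPM of the endothelial list. Macrophage markers summed to 70.6 to 405 CPM, led by *Cd74* (80.7 ± 53.8 CPM) and *C1qa* (52.6 ± 10.3 CPM), and acinar and duct markers to 229 to 488 CPM, led by *Krt18* (131 ± 15.8 CPM) and *Spp1* (101 ± 65.6 CPM). Cell cycle genes summed to 41.1 to 134 CPM, led by *Pcna* (33.9 ± 4.25 CPM), against 45.3 to 65.0 CPM in β barcodes.

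Single barcodes, and not only sums, held genes of both types. A UMI of *Hhex* together with one of *Mafa* or *Nkx6-1* was found in 93.2%, 90.6%, and 89.4% of WT and 82.8%, 70.7%, and 88.5% of KO insulin–somatostatin barcodes. The mean was 85.9% ± 8.18, against 4.86% ± 2.12 in β, 52.8% ± 12.8 in δ, and 22.7% ± 6.65 in endothelial barcodes (SD, n = 6 libraries). Endothelial cells express *Hhex* themselves (43.6 ± 4.86 CPM), so for *Hhex* the β barcodes are the better measure of free RNA. With each barcode thinned to 5000 UMIs, joint detection was 27.2% ± 7.18, 1.77% ± 1.91, 16.3% ± 3.70, and 5.51% ± 3.83 in the same order. *Rbp4* together with *Mafa* or *Nkx6-1* was found in 81.6% ± 5.13 of thinned insulin–somatostatin, 7.87% ± 3.86 of β, 30.2% ± 8.41 of δ, and 2.72% ± 2.12 of endothelial barcodes. Unthinned, these ran over the libraries from 95.7%, 20.7%, 34.9%, and 3.03% to 100%, 31.5%, 75.3%, and 14.5%, at median depths of 28683.5 to 55006, 9813 to 42018.5, 14642 to 22077, and 10073.5 to 15655 UMIs. In barcodes with insulin and *Gcg* or *Ppy*, *Rbp4* with a β factor reached 40.3% ± 10.2 thinned, and *Hhex* with a β factor 1.30% ± 1.03.

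Among themselves these barcodes differed in δ genes along with *Sst*. They were divided by *Sst* share into 1% to 2% (205 barcodes), 2% to 4% (211), and over 4% (110), with 8 to 62 barcodes a library in each class. *Rbp4* stood at 1104 ± 171, 1724 ± 269, and 2882 ± 487 CPM in that order and *Hhex* at 52.9 ± 9.12, 78.1 ± 9.51, and 132 ± 21.2 CPM (SD over 6 libraries), and both were higher at each step in all 6 libraries, WT library 1 with its 15 and 8 barcodes in the outer classes included. *Ins2* was at 246985 ± 27213, 215380 ± 30370, and 179924 ± 26055 CPM, and the median UMIs were 52635, 47121, and 34759. *Mafa* was at 478 ± 142, 415 ± 196, and 373 ± 78.4 CPM, a spread too wide to order the classes. *Ppy*, in contrast to the δ genes, was highest at the lowest *Sst* share, at 18163 ± 6319, 12152 ± 2582, and 10345 ± 1842 CPM, with WT library 1 going the other way at the first step. Since the shares of 1 barcode sum to a whole, more *Sst* leaves less room for insulin, which was not corrected.

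**Figure D4:**
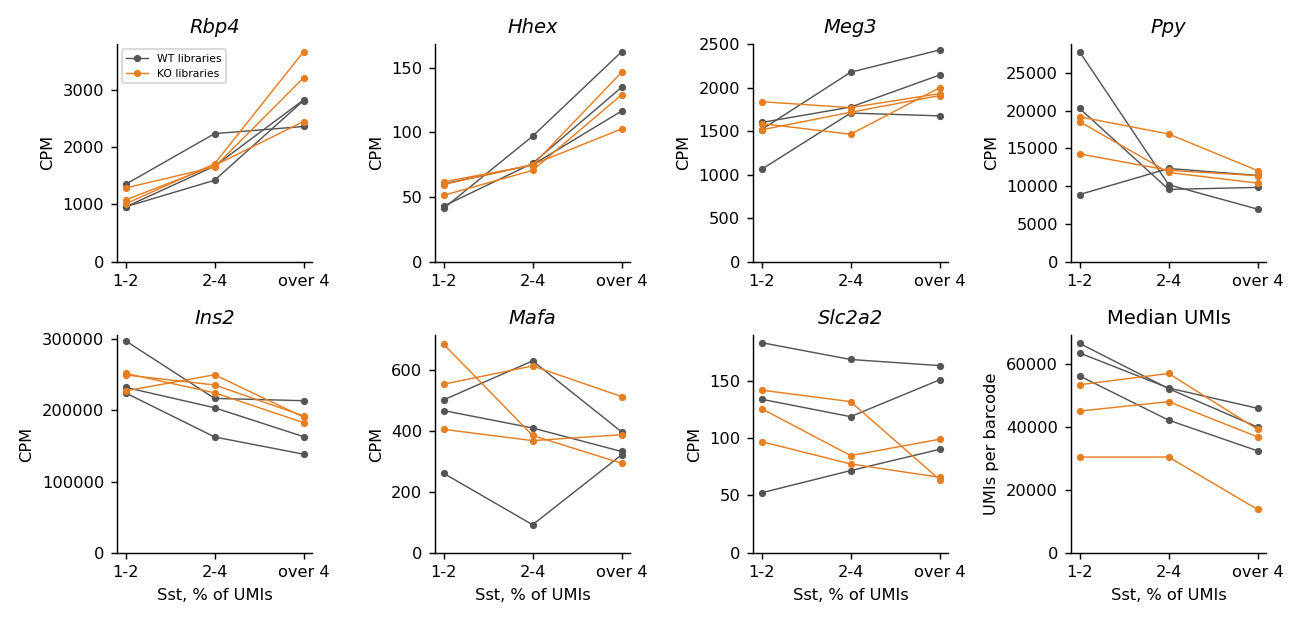
Levels of 7 genes (CPM of summed UMIs) and median UMIs per barcode in insulin–somatostatin barcodes with 1% to 2%, 2% to 4%, and over 4% *Sst*, 1 line for each library (gray WT, orange KO). *Rbp4* and *Hhex* are higher at both steps in all 6 libraries, and *Mafa* and *Slc2a2* follow no common course.

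Genotype, which the rule did not use directly, was tested next, with UMIs summed over the insulin–somatostatin barcodes of each library. *Ywhaz* (chr15:36770770-36796929, minus strand), the targeted gene, checks the labels first. It stood at 152, 184, and 179 CPM in WT and at 65.3, 82.9, and 74.4 CPM in KO insulin–somatostatin barcodes. All KO libraries were below all WT libraries, and *Ywhaz* fell by 1.20 on the log2 scale (SE 0.122; edgeR's quasi-likelihood test, Benjamini-Hochberg adjusted p = 0.00142). About 0.432 of the WT level thus remained. In the share of barcodes with a *Ywhaz* UMI, WT had 98.4% ± 0.621 and KO 86.4% ± 6.01, or 59.9% ± 4.75 and 31.3% ± 5.23 after thinning to 5000 UMIs (SD, n = 3 each). In endothelial barcodes, which Ins1-CreThor should spare, the thinned shares were 90.6% ± 4.17 in WT and 87.6% ± 2.83 in KO.

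*Ywhaz* in KO insulin–somatostatin barcodes lay above its level in β barcodes and below that in δ barcodes of the same library in all 3 KO libraries. β barcodes had 127, 177, and 163 CPM in WT and 22.04, 52.3, and 21.5 CPM in KO, and δ barcodes had 183, 196, and 202 CPM in WT and 181, 173, and 184 CPM in KO. Barcodes with insulin and *Gcg* or *Ppy* had 111, 151, and 149 CPM in WT and 44.2, 56.0, and 45.7 CPM in KO. In KO they too lay between β and δ barcodes, so this was not particular to insulin–somatostatin barcodes. The log2 ratio of insulin–somatostatin to β barcodes was 0.26, 0.06, and 0.13 for WT and 1.57, 0.67, and 1.79 for KO. Against δ barcodes it was −0.27, −0.08, and −0.17 in WT and −1.47, −1.06, and −1.31 in KO. Both ratios separated the genotypes without overlap, at the smallest p that 3 against 3 can give (two-sided exact permutation test, p = 0.1 for each of the 2 ratios, and 0.1 after Benjamini-Hochberg adjustment). With the mitochondrial share limited to 5%, the ratio to β barcodes was 0.05 in KO library 2 and the genotypes overlapped (exact permutation test, p = 0.3).

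In the fit across all genes the difference between classes did not pass. The limma-voom genotype by class term, with the library as a random block, gave a *Ywhaz* change of −1.21 in insulin–somatostatin, −2.43 in β, and −0.07 in δ barcodes. The change differed by 1.22 from that in β barcodes (SE 0.335, limma adjusted p = 1.00) and by −1.14 from that in δ barcodes (SE 0.327, adjusted p = 1.00). KO library 2 decided these calls. Without it the differences were 1.57 (limma adjusted p = 9.75e-06) and −1.26 (limma adjusted p = 3.68e-04), and *Ywhaz* was the 1 gene called in each. With over 3000 genes required of each barcode, a limit chosen after seeing the data, KO library 2 had 28.7 CPM of *Ywhaz* in β barcodes, and the adjusted p-values were 4.12e-05 and 0.00798. Over all 10885 genes, limma called 0 (0%) against β and 0 (0%) against δ barcodes, with 196 (1.80%) and 271 (2.49%) at an unadjusted p under 0.05. edgeR with the library as a fixed term called 0 and 1 (*Ighm*, an immunoglobulin gene). Fitted in that limma model, the genotype effect called 0 genes in insulin–somatostatin barcodes (0%; *Ywhaz* and *Gstp1* included, limma adjusted p = 1.00 for each), 3 in β (0.0276%), and 0 in δ barcodes.

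**Figure D5:**
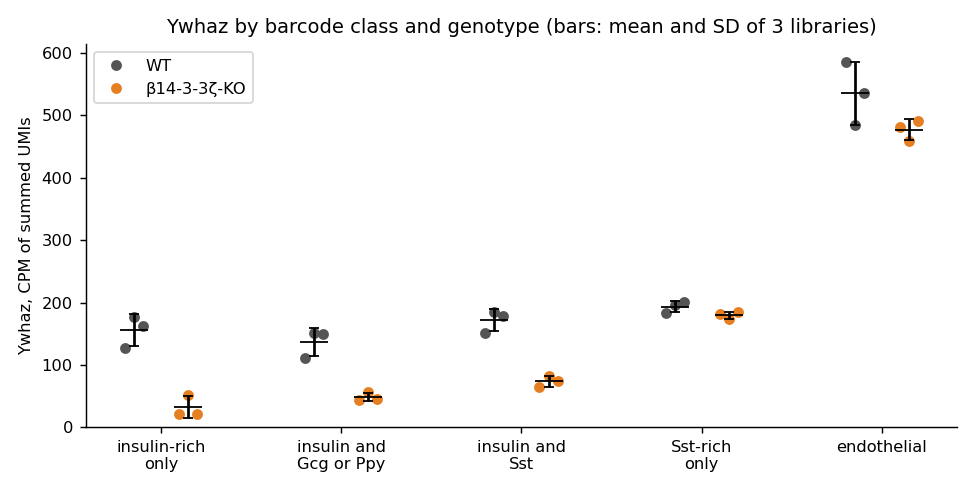
*Ywhaz* (CPM of summed UMIs) in 5 barcode classes of WT (gray) and β14-3-3ζ–KO (orange) libraries, 1 point a library, with the mean and SD of 3 libraries as bars. In insulin–somatostatin barcodes the KO points (65.3 to 82.9 CPM) lie above those of β barcodes (21.5 to 52.3 CPM) and below those of δ barcodes (173 to 184 CPM). The KO points of barcodes with insulin and *Gcg* or *Ppy* are at 44.2 to 56.0 CPM.

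Set beside the UMI-weighted mean of β and δ barcodes, *Ywhaz* of insulin–somatostatin barcodes was at 1.04, 0.999, and 1.01 times that mean in WT libraries. In KO libraries it was at 0.832, 0.665, and 0.945 times, all 3 below WT. The lowest value was in KO library 2, where the weight of δ was also the highest.

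Besides *Ywhaz*, 1 gene was called among 10885 tested (2 called, 0.0184%), and both were lower in KO. *Gstp1*, a glutathione S-transferase at chr19:4035407-4037985 with near-identical neighboring copies that can share its UMIs, stood at 24.1, 22.1, and 18.7 TMM-scaled CPM in WT and 7.07, 5.10, and 8.17 in KO, and the genotypes did not overlap. *Gstp1* fell by 1.64 on the log2 scale (SE 0.197; edgeR adjusted p = 0.00533). Its change was −1.16 in β and −1.04 in δ barcodes (limma; SE 0.165 and 0.296), and the differences from these classes did not pass (adjusted p = 1.00 for each). *Gstp1* lost its call when *Sst* was required at 2% (edgeR adjusted p = 0.294) or the mitochondrial share limited to 5% (edgeR adjusted p = 0.666).

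The genes next in line did not pass the edgeR test, and some passed under other settings. *Gm10076*, a ribosomal protein pseudogene, had 146, 272, and 210 TMM-scaled CPM in WT and 80.0, 102, and 118 in KO (log2 change −1.07, SE 0.188, edgeR adjusted p = 0.208). It was called without WT library 1 (edgeR adjusted p = 0.00249) and with insulin at 20% or more (edgeR adjusted p = 0.00769). *Ins1* had 53219, 78084, and 63521 in WT and 37956, 42458, and 39705 in KO (−0.70, SE 0.161, edgeR adjusted p = 1.00), did not overlap, and carries the Cre allele. *Ins1* did not overlap in β barcodes either, at 86083 to 109648 CPM in WT and 57398 to 64418 CPM in KO. Genotype and the number of Cre copies cannot be told apart for this gene. The rule used *Ins1* together with *Ins2*, so all tests of *Ins1* in these barcodes are given as a description only. DESeq2 called *Ins1* (adjusted p = 1.79e-04) and *Rpl35*. *Hmgn2*, a nucleosome-binding protein, *Rpl35*, and *Pdyn*, the precursor of dynorphin, had log2 values of −0.65, −0.65, and −0.80 and also did not overlap (edgeR adjusted p of 0.545, 0.553, and 1.00). *Hmgn2* was called without WT library 1 (edgeR adjusted p = 0.0132) and *Pdyn* with insulin at 20% or more (edgeR adjusted p = 0.0374). On the higher side stood *Phpt1*, *Wdr89*, *Nle1*, *Gm17066*, and *Snhg20*, at log2 values of 0.38 to 1.03, each with an adjusted p of 1.00. *Phpt1* and *Wdr89* were each called in 1 alternative setting, at log2 values of 0.85 and 0.69. Genes without overlap between the genotypes numbered 1068 of 10885 (9.81%), 529 higher (4.86%) and 539 lower (4.95%) in KO, and 398 (3.66%) had an unadjusted p under 0.05, 190 higher (1.75%) and 208 lower (1.91%).

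No gene of the islet lists was called between the genotypes. Of the 14 δ genes tested, 7 had a higher and 7 a lower value in KO (median log2 value −0.05), and of 18 β genes 13 had a higher and 5 a lower value (median 0.10), against a median of −0.00 over all genes. *Hhex* differed by 0.00 (SE 0.0974), *Rbp4* by 0.07 (SE 0.133), *Mafa* by 0.32 (SE 0.262), *Meg3* by 0.00 (SE 0.111), and *Mlxipl* by 0.16 (SE 0.133) on the log2 scale (edgeR adjusted p = 1.00 for each). The other 14-3-3 genes tested, *Ywhab*, *Ywhae*, *Ywhag*, *Ywhah*, and *Ywhaq*, had log2 values of −0.10 to 0.08 with overlapping ranges, and *Sfn* was too low to test. All 10 immediate early genes had a lower value in KO (median −0.29) and 9 of 10 ER stress genes did (median −0.17), with 0 called and 2 and 3 of them at an unadjusted p under 0.05. Over all 10885 genes, 5445 had a lower value in KO and 3.66% an unadjusted p under 0.05. The immediate early sum in unscaled CPM was 1346 to 1410 in WT and 997 to 1344 in KO, ranges that nearly met. The ER stress sum was 3190 to 3540 CPM in WT and 2572 to 3244 CPM in KO, with overlap. In TMM-scaled CPM, 0 of the 10 immediate early and 1 of the 10 ER stress genes did not overlap, against 9.81% of all genes. Of 5 nuclear-encoded mitochondrial genes, *Uqcc2*, *Atp5g1*, *Ndufa4*, and *Smdt1* were singled out by the study on these samples and so are no independent evidence. Together with *Slc25a4*, the mitochondrial carrier of ADP and ATP, they had log2 values of 0.16 to 0.23 and no call. In TMM-scaled CPM the ranges of each overlapped. In unscaled CPM *Slc25a4* did not overlap, at 176 to 182 CPM in WT and 190 to 226 CPM in KO.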

How the data were processed

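Islet cells of 3 WT and 3 β14-3-3ζ–KO mice were profiled by droplet-based 3′ single-cell RNA-Seq, 1 library per mouse, and per the labels the groups and replicate numbers were taken from the sample titles. The authors aligned the reads to mm10 with Cell Ranger 6.0.2 and deposited, for each library, a matrix of UMI counts per gene and barcode, which are raw and not normalized. Seurat is also named in the submitters' processing notes. The rule's barcodes and the gene lists were chosen with earlier results of these data known. UMI counts were summed per library and barcode class. A gene was tested if over 15% of the insulin–somatostatin barcodes of WT or of KO held at least 1 UMI of it. Genotype was tested with edgeR 4.0.16 (TMM, quasi-likelihood), and the difference of its effect between classes with limma 3.58.1 (voom, library as random block), in R 4.3.3. A call needed an adjusted p under 0.05 and a log2 change past 0.1. Single values were compared by exact permutation (scipy 1.17.1). Named genes were those called, the next 5 higher and 5 lower in KO by unadjusted p, the hormone and marker lists, and the 5 genes furthest above and below both single-hormone classes. The fits were run on simulated counts in which the classes of 1 library were drawn independently. In the data the correlation within a library was 0.241, so that run does not test the class term under such correlation. Errors are SDs between libraries, each 1 mouse, and shares with a UMI depend on depth, so they were also given with barcodes thinned to 5000 UMIs. All pairs of libraries differed beyond sampling noise (chi-square per degree of freedom 2.48 to 10.7), so none was counted as a duplicate. Of 32285 gene IDs, 32235 were in GENCODE vM21 (GRCm38, the same build as mm10), which gave the coordinates. Barcode thresholds, normalization, the gene filter, DESeq2 1.42.0, the replicate block, and single libraries left out were tried as alternatives.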

Additional observations from a re-analysis of the deposited data

How the results depend on the processing

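The number of insulin–somatostatin barcodes followed the limits, with 321 when *Sst* was required at 2%, 349 with insulin at 20%, and 179 with the mitochondrial share at 5% or less. The KO minus WT difference of their share changed sign to −0.27 and −0.45 percentage points with *Sst* at 2% and the mitochondrial share at 5%, and it grew to 1.12 with 10000 or more UMIs and 1.01 with over 3000 genes, where the share in KO library 2 was 7.82% and 8.46%. It ran from −0.47 without WT library 1 to 0.63 without WT library 2. The position of the δ list moved to 0.466 with *Sst* at 2% and 0.332 with the mitochondrial share at 5%. DESeq2 called 4 genes between genotypes, among them *Ins1*, a gene of the rule. Without a gene filter 54 were called, 4 with insulin at 20%, and 1 with *Sst* at 2% or the mitochondrial share at 5%, and leaving out single libraries gave 2 to 4. *Gm10076* gained a call in 4 of these settings: without a filter, with insulin at 20%, without WT library 1, and with the replicate block. *Ywhaz* was called in all 16 alternatives.

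The *Ywhaz* difference from β barcodes passed the test at 1.29 with insulin at 20%, 1.54 with 10000 or more UMIs, and 1.56 with over 3000 genes, 1 gene called in each. Against δ barcodes it passed at −1.11 with 10000 or more UMIs and −1.13 with over 3000 genes, 1 gene called in each, and edgeR with the library as a fixed term called 1 gene, *Ighm*. Without single libraries the differences were 0.97 to 1.57 and −1.26 to −1.04, with 0 to 1 gene called. Of the libraries left out in turn, KO library 2 was the one without which *Ywhaz* was called, and without WT library 3 the 1 call was *Prr16*, against β. The limit of over 3000 genes was chosen after seeing the data.

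With the replicate number as a block, 11 genes were called between genotypes, *Gm10076*, *Hmgn2*, and *Rpl35* among them, and the *Ywhaz* differences were 1.24 and −1.13 with no call. Deviations of same-numbered libraries correlated at 0.258, 0.204, and 0.0854 across genes, and those of the other pairs at −0.242 to 0.0262. Each library thus correlated best with the one of its own number. What same-numbered libraries had in common was not tested, and the main fit did not pair them. Depth limits single genes: the summed insulin–somatostatin barcodes held 2785 UMIs of *Ywhaz*, against 20021 in β barcodes.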
